A study of Mus musculus with 10 samples.

Results

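The variable (V) segments of the immunoglobulin loci were taken as every row of the count tables whose gene name begins with Ighv (heavy chain), Igkv (kappa light chain) or Iglv (lambda light chain). This gave 348 of 53656 rows: 183 Ighv, 162 Igkv and 3 Iglv. They were counted in 10 RNA sequencing libraries of transferred mouse CD4 T cells with the transgenic SMARTA receptor, which binds the GP61 peptide of lymphocytic choriomeningitis virus. Naive TOX knockout (KO, n = 6) and TOX wild type (WT, n = 4) cells had been put into B6 mice that were treated with cytoxan (cyclophosphamide) and bore B16-GP61 melanoma. Both were sorted 11 days later from the tumour-draining lymph node. The KO cells were sorted as CD4+, Ly5.1+, Ly5.2-, PD1lo, LAG3lo and CD39lo, and the WT cells as CD4+, Ly5.1+, Ly5.2+, PD1hi, LAG3hi and CD39hi. Genotype, congenic marker and activation gate therefore cannot be told apart. B6 hosts make B cells of their own, and the labels do not say how many the cytoxan left. Age is not given in the labels, and neither are the animals behind each replicate, so each p-value rests on the spread between libraries alone, and that spread may be technical in part.

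A V segment is the part of an immunoglobulin gene that encodes most of the antigen-binding domain. A developing B cell joins a V segment to D and J segments in the heavy chain locus, or to a J segment in a light chain locus, and transcribes the joined exon together with a constant gene downstream. A B cell and its descendants usually express a single heavy chain and a single light chain rearrangement, so a population of many clones spreads its V reads over many segments, and an expanded clone or plasma cell adds to a few. T cells assemble the V segments of the T cell receptor loci instead. The V segments described here are thus genes of another lineage than the one the labels name.

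Tox, the targeted gene, was at 31.0 ± 20.8 CPM (counts scaled by the adjusted library size, SD, n = 6) in KO and 236 ± 88.0 CPM (SD, n = 4) in WT, with no overlap (log2 fold change -2.93, SE 0.48, edgeR quasi-likelihood test with Benjamini-Hochberg adjustment, adjusted p = 0.010). Libraries held 31939816 to 55784453 counts. The 10 T cell markers checked (Cd3d, Cd3e, Cd4 and Lck among them) summed to 21786 to 27345 CPM in KO and 9884 to 19619 CPM in WT, so RNA of the labelled cell type was counted in every library. The labels also number the libraries: KO replicates 1 to 6 are numbers 1, 2, 3, 4, 6 and 8, and WT replicates 1 to 4 are numbers 2, 5, 6 and 7. Libraries numbered 1 to 3 had 14365 to 15873 genes with a count and those numbered 4 to 8 had 16348 to 19775, so results were also computed within the second set (3 KO and 3 WT).

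In the GRCm38 annotation the Ighv rows lie on chromosome 12 from 113572927 to 116010093, the Igkv rows on chromosome 6 from 67555497 to 70704177 and the Iglv rows on chromosome 16 from 19085017 to 19260859. GENCODE M21 calls 217 of the rows V genes and 129 V pseudogenes, and 2 rows had no match. The segments are short, with a median of 353 exonic bases per row, and many are near copies of each other. Of 346 segments with a transcript, 255 shared at least 1 stretch of 50 bases, the read length, with another V segment, and 35 shared at least 50% of such stretches. The commands in the file headers did not ask for reads that match several places, so counts of near copies are uncertain and may be too low. The sequences below are the first 300 bases of the V exons (all 299 for Igkv16-104) of the segments on which the results turn: the 3 kappa segments that led WT libraries, the 3 heavy chain segments that led the Ighv counts there, and the lambda segment that led 3 KO libraries. They were read from GENCODE M21 transcripts (GRCm38), 5′ to 3′ on the coding strand, and capitals mark bases that differ from the most similar other V gene segment, or stand opposite a gap, in a global alignment.
Ighv1-9: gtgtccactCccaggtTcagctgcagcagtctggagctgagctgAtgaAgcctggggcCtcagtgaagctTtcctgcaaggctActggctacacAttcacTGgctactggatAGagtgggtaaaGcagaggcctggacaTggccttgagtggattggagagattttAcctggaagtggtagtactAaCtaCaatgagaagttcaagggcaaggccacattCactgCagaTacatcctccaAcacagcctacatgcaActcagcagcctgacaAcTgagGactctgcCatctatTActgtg
Ighv1-18: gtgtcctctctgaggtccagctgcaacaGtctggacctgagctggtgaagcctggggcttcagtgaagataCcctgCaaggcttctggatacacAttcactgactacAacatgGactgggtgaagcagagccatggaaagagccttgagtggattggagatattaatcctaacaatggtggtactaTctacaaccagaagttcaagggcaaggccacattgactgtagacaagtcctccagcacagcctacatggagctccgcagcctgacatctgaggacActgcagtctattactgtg
Ighv3-6: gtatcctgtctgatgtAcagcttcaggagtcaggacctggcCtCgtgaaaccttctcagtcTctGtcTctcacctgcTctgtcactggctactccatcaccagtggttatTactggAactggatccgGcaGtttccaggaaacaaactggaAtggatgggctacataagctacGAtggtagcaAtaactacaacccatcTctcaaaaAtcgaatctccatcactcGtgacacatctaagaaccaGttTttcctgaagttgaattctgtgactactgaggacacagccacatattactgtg
Igkv4-57: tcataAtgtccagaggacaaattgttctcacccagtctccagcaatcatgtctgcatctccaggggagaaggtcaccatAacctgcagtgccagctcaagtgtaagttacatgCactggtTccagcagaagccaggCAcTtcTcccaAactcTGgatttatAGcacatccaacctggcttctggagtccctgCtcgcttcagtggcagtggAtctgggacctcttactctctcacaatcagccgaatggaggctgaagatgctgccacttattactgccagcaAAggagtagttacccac
Igkv4-91: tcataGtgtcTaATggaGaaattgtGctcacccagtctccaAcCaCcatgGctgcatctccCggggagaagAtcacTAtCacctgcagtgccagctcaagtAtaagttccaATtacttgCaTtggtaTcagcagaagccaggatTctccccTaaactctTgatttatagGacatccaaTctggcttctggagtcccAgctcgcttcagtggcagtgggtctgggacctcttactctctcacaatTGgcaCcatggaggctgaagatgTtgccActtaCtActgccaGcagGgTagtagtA
Igkv16-104: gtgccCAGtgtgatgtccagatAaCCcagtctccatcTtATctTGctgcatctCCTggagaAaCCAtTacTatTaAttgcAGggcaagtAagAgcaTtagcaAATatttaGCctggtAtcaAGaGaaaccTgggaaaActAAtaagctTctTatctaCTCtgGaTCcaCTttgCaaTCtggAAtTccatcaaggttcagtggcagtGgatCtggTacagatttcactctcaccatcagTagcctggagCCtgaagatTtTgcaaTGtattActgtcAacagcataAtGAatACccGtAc
Iglv1: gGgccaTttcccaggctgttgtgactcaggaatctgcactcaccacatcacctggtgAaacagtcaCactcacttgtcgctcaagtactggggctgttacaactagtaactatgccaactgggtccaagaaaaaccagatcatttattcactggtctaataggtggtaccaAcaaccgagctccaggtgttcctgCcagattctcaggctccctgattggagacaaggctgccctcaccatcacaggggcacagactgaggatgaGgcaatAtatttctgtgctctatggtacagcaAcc

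The exons differ in how far a short read can tell them from a neighbour. Shared stretches were computed for single reads of 50 bases, while sequencing was in 50 bp pairs. The shared percents are thus not the part of the counts that was lost. Igkv16-104 (chr6:68425774-68426072, plus strand) was 74.9% identical to its nearest relative, Igkv11-125, and shared none of the 50-base stretches of its transcript. Ighv1-9 (chr12:114583574-114583873, minus strand) was 90.2% identical to Ighv1-62-1 and shared 0.662% of its stretches. Igkv4-91 (chr6:68768564-68768863, minus strand) was 86.4% identical to Igkv4-79, and Ighv3-6 (chr12:114288159-114288458, minus strand) was 93.5% identical to Ighv3-1. The counts of the other 3 are less certain. Igkv4-57 (chr6:69575978-69576277, minus strand) was 94.4% identical to Igkv4-55 and shared 50.8% of its stretches. Ighv1-18 (chr12:114682637-114682936, minus strand) was 97.4% identical to Ighv1-26 and shared 35.8%, and Iglv1 (chr16:19085022-19085321, minus strand) was 97.0% identical to Iglv2 and shared 22.2%.

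V segments were counted in every library, at levels that differed widely between the genotypes. In KO replicates 1 to 6 they held 538, 1779, 3795, 969, 669 and 5485 counts, which is 0.00131, 0.00350, 0.00680, 0.00269, 0.00159 and 0.0131% of all counts. In WT replicates 1 to 4 they held 43844, 257714, 329561 and 884030 counts, or 0.0964, 0.807, 0.925 and 2.42%. WT replicate 1 stood between the KO libraries and the other 3 WT libraries. The difference of the group means of the log2 share was -7.54 for KO minus WT, and -8.32 within library numbers 4 to 8. No p is given for this sum, because its members were proposed with results of these data known. In bulk RNA, fewer cells of a type and less RNA per cell cannot be told apart.

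B cell markers were lower in KO than in WT, as the V counts were. The 9 markers Ms4a1, Cd79a, Cd79b, Pax5, Cd22, Ebf1, Blk, Fcrla and Cr2 summed to 71.5 to 274 CPM in KO and 2453 to 8472 CPM in WT. Of these 9, edgeR called 6 lower in KO and 0 higher, where 2.7% of all tested genes were lower and 0.429% higher. Cd79b, a signalling chain of the B cell receptor, was at 26.01 to 84.0 CPM in KO and 940.3 to 2573 CPM in WT, and none of the 9 markers was at 0 in all KO libraries. Within WT the markers did not follow the order of the V counts. All of the 9 except Ebf1 were lower in WT replicate 4, which had the most V counts, than in WT replicate 2. Plasma cell markers (8, of which 7 were tested) summed to 236 to 873 CPM in KO and 823 to 5982 CPM in WT, with 2 lower in KO, Jchain and Mzb1. Xbp1 and Irf4, transcription factors of plasma cells that T cells also express, made up most of that sum in every KO library and did not pass. Xbp1 was at 57.8 to 715 CPM in KO and 49.9 to 476 CPM in WT (edgeR adjusted p = 0.68), and Irf4 at 38.3 to 224 and 18.0 to 256 CPM (0.99). Jchain, which links antibody multimers, was at 0 in KO replicates 1 and 2, at 0.508 to 15.5 CPM in the other KO libraries and at 94.8 to 3921 CPM in WT. Germinal centre B cell markers summed to 121 to 164.528 CPM in KO and 164.530 to 299 CPM in WT, and none of the 5 tested of 6 passed. Of 7 B cell precursor markers, 3 were tested and Vpreb3 was called lower. Rag1 and Rag2, the recombinase that joins V segments, had 0 counts in all 10 libraries. Pou2af1, the coactivator of octamer factors at V promoters, was at 46.3 to 73.1 CPM in KO and 144 to 740 CPM in WT (edgeR adjusted p = 0.0030), while the octamer factor genes Pou2f1 and Pou2f2 did not pass (0.95 and 0.64). The 6 myeloid markers, which mark another cell type, summed to 142 to 336 CPM in KO and 1539 to 6772 CPM in WT, with 2 lower in KO. The part of these cell types in the V counts was not tested.

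**Figure D1:**
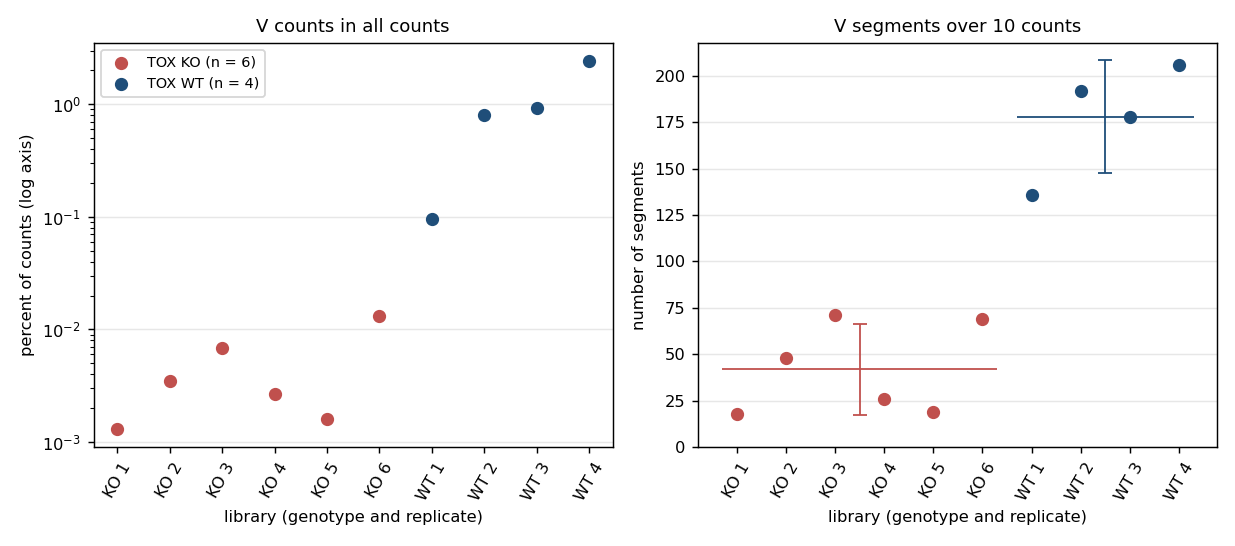
Left, the share of each library's counts on V segments, in percent on a log axis; right, the number of V segments over 10 counts, with the group mean as a line and the SD as a bar. All 6 KO libraries lie at or below 0.0131% and 71 segments, and all 4 WT libraries at or above 0.0964% and 136 segments.

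The number of segments seen followed the totals. In KO replicates 1 to 6, 18, 48, 71, 26, 19 and 69 segments had over 10 counts, and in WT replicates 1 to 4, 136, 192, 178 and 206 did. The means were 41.8 ± 24.4 (SD, n = 6) and 178 ± 30.2 (SD, n = 4), with no overlap. With at least 1 count there were 71 to 128 segments in KO and 146 to 243 in WT. Across all libraries 260 segments had a count, 22 had a count in every library, 88 had counts in WT libraries alone and 0 in KO libraries alone. The remaining 88 rows were at 0 throughout. Of the V genes 209 of 217 had a count, and of the pseudogenes 50 of 129.

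Depth was then removed by thinning each library to the 538 V counts of the shallowest, KO replicate 1. The expected number of segments over 10 counts was 18.0, 15.2, 14.5, 10.2, 15.6 and 9.39 in KO and 7.25, 7.45, 5.94 and 8.35 in WT. The order of the groups was thus the opposite of that of the raw number: 13.8 ± 3.34 (SD, n = 6) in KO and 7.25 ± 0.995 (SD, n = 4) in WT, with no overlap (exact two-sided permutation test, p = 0.0095, the smallest that 210 splits allow; adjusted p = 0.022 over 7 composition tests). The direction depended on the threshold of 10 counts. Segments with at least 1 count at the same depth numbered 77.1 ± 7.01 in KO and 88.7 ± 13.1 in WT (exact permutation test, adjusted p = 0.15), and segments over 50 counts 0.999 in KO and 2.05 in WT on average (adjusted p = 0.10).

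Pielou evenness is the Shannon entropy of the segment shares over its maximum for the segments counted, and is 1 where all have equal counts. It was 0.910, 0.893, 0.876, 0.856, 0.901 and 0.743 in KO and 0.701, 0.662, 0.530 and 0.733 in WT. The groups did not overlap, although KO replicate 6 was close to WT replicate 4. Means were 0.863 ± 0.0617 (SD, n = 6) and 0.656 ± 0.0890 (SD, n = 4) (exact two-sided permutation test, p = 0.0095, adjusted p = 0.022). Each library was also scaled in proportion to 538 V counts and the results taken as whole counts. This drops rare segments and is not the thinning used for the matched number. Evenness was then 0.765 to 0.910 in KO and 0.608 to 0.811 in WT. The groups then overlapped and the difference was 0.140 (exact permutation test, adjusted p = 0.044) in place of 0.207. Taken over all 348 rows as the maximum, whether counted or not, the difference was 0.058 and did not pass (exact permutation test, adjusted p = 0.25). Within library numbers 4 to 8 evenness was 0.834 in KO and 0.641 in WT on average and the number of segments over 10 counts, thinned there to the 669 V counts of the shallowest of the 6, was 14.7 and 9.55, with no overlap; 3 against 3 libraries cannot give an exact permutation p below 0.10. The tests of evenness, of the matched number and of the ratio to constant genes given further on missed the threshold without WT replicate 1, 2 or 3 (exact permutation test, adjusted p = 0.056), where each was at the smallest p that 6 against 3 libraries allow.

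The largest segment took 7.06% of V counts in KO replicate 1 (Igkv4-55, 95% Wilson interval 5.19 to 9.55%), 10.6% in replicate 2 (Iglv1, 9.28 to 12.1%), 10.4% in replicate 3 (Iglv1, 9.48 to 11.4%), 12.3% in replicate 4 (Igkv4-57, 10.4 to 14.5%), 10.6% in replicate 5 (Iglv1, 8.50 to 13.2%) and 15.7% in replicate 6 (Igkv10-96, 14.8 to 16.7%). In WT it took 19.8% in replicate 1 (Igkv4-91, 19.4 to 20.2%), 20.2% in replicate 2 (Igkv4-57, 20.1 to 20.4%), 28.4% in replicate 3 (Igkv4-57, 28.2 to 28.6%) and 11.6% in replicate 4 (Igkv16-104, 11.6 to 11.7%). The intervals cover counting error alone, since amplified reads are not independent molecules. WT replicate 4 lay below KO replicates 4 and 6, so the groups overlapped. Means were 11.1 ± 2.82% (SD, n = 6) and 20.01 ± 6.85% (SD, n = 4), a difference of -8.90 percentage points that did not pass (exact two-sided permutation test, p = 0.029, adjusted p = 0.05). Within a locus the difference passed, with overlap. The leading segment held 13.8 ± 6.31% of Ighv counts in KO and 43.1 ± 17.9% in WT, and 14.6 ± 7.12% and 35.4 ± 13.0% of Igkv counts (SD, n = 6 and 4; exact permutation test, adjusted p = 0.033 for each). To reach 50% of V counts took 14, 15, 14, 11, 14 and 6 segments in KO replicates 1 to 6. In WT replicates 1 to 4 it took 5, 6, 2 and 10.

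**Figure D2:**
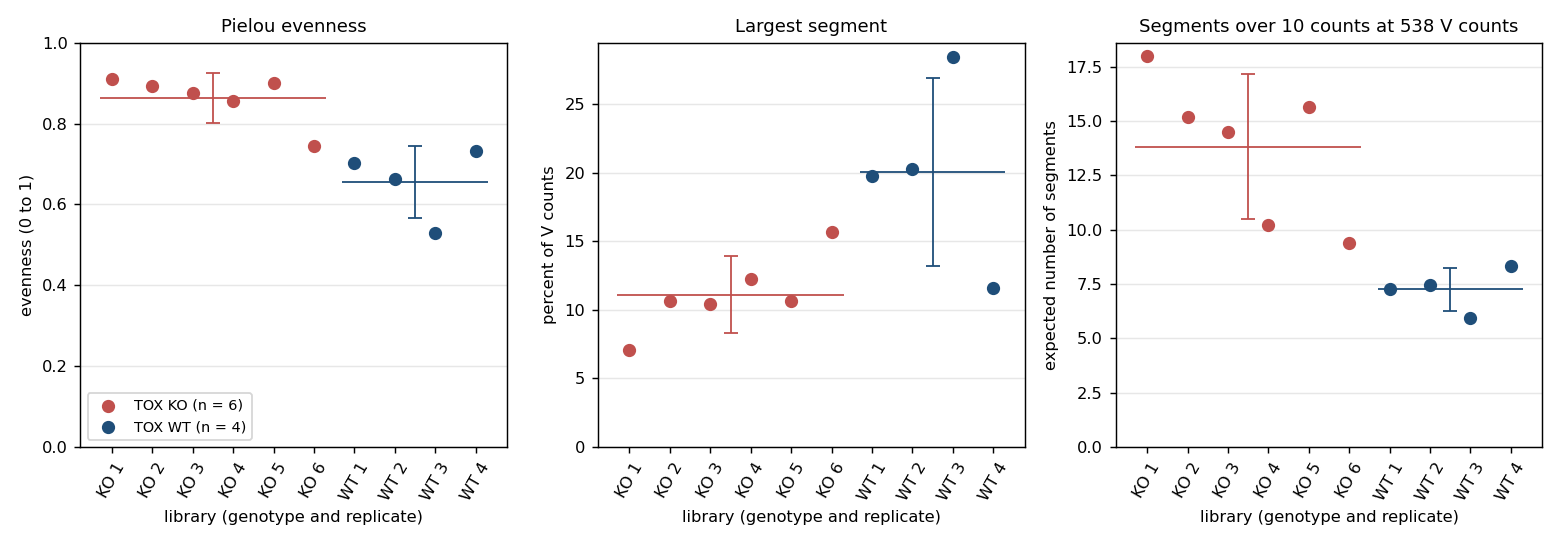
Pielou evenness (0 to 1), the percent of V counts on the largest segment, and the expected number of segments over 10 counts after thinning to 538 V counts, by library, with group means as lines and SDs as bars. Evenness and the matched number do not overlap between the groups, and the largest share does, through WT 4 at 11.6%.

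For scale, the 165 T cell receptor V rows (Trav and Trbv) of the same libraries were far less even. Their evenness was 0.180 to 0.258 in KO and 0.205 to 0.231 in WT. Trbv13-1 was the largest row in all 10 libraries, with 64.4 to 70.0% of T cell receptor V counts in KO and 64.2 to 69.2% in WT. These libraries came from cells with a transgenic receptor, and their leading T cell receptor segment was the same throughout, while the leading immunoglobulin segment was Igkv4-55, Iglv1, Igkv4-57, Igkv10-96, Igkv4-91 or Igkv16-104 depending on the library.

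The split of V counts over the loci did not differ beyond the spread. Ighv held 33.1, 22.2, 16.5, 29.6, 46.8 and 34.9% in KO and 24.1, 39.3, 41.4 and 41.0% in WT (30.5 ± 10.6% against 36.5 ± 8.28%, exact two-sided permutation test, adjusted p = 0.33). Lambda segments held 5.32 to 26.4% of light chain V counts in KO and 7.92 to 13.5% in WT (15.1 ± 7.78% against 10.3 ± 2.33%, exact permutation test, adjusted p = 0.33). The lambda constant genes Iglc1, Iglc2 and Iglc3 held 12.3 to 38.0% of the counts on them and Igkc in KO, and 4.38 to 21.4% in WT (exact permutation test, adjusted p = 0.040). This measure was added after the data were seen. Pseudogenes held 0 to 1.29% of V counts in KO and 0.0852 to 0.509% in WT (exact permutation test, adjusted p = 0.25).

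Families, the groups of similar segments that share the number before the hyphen, shifted from library to library. Ighv1, the largest heavy chain family with 92 rows, held a median of 60.7% of Ighv counts in KO (54.2 to 80.7%) and 80.1% in WT. WT replicate 1 stood apart at 37.6%, against 78.4 to 85.8% in the other WT libraries. In that library the 8 rows of Ighv3 held 44.3% of Ighv counts, 44.2% on Ighv3-6 alone. Igkv4, the largest kappa family with 33 rows, held 17.2 to 43.0% of Igkv counts in KO and 24.9 to 69.1% in WT. Igkv3 held 5.73 to 22.6% in KO and 2.33 to 5.41% in WT, with no overlap. The gap was small, between KO replicate 5 with 262 Igkv counts in all and WT replicate 1. The only other family without overlap, among 16 Ighv, 20 Igkv and 3 Iglv families, went the other way. Ighv15 held 0% of Ighv counts in every KO library and 0.0220 to 0.397% in WT. KO libraries held 178 to 1913 Ighv counts, so a share in the WT range can give 0 counts there. Families were not tested. Igkv10 held 26.7% in KO replicate 6 and 2.36 to 9.54% in all other libraries.

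Set against the constant genes of the same loci, V counts differed by chain. Per 100 counts on 12 constant genes there were 1.597, 3.34, 5.02, 2.38, 1.46 and 7.53 V counts in KO and 13.4, 12.3, 13.7 and 16.9 in WT. The log2 ratio was -5.07 ± 0.93 (SD, n = 6) and -2.84 ± 0.20 (SD, n = 4), with no overlap (exact two-sided permutation test, p = 0.0095, adjusted p = 0.022), and the difference was -2.26 within library numbers 4 to 8. In the kappa locus, where a single constant gene follows all V segments, there was hardly a difference: 21.2, 23.2, 25.9, 25.9, 23.5 and 27.2 Igkv counts per 100 Igkc counts in KO, and 25.5, 24.1, 25.8 and 29.3 in WT. The log2 difference was -0.10 (exact permutation test, adjusted p = 0.33) over Igkc counts that ran from 1115 to 1602009. In the heavy chain locus there were 0.562 to 3.26 Ighv counts per 100 heavy constant counts in KO and 5.77 to 10.3 in WT.

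Ighm, the constant gene of IgM, made up most of the constant counts in KO. It was 87.8, 81.0, 76.6, 85.6, 89.3 and 56.6% of constant counts in KO, and 25.4, 14.8, 8.85 and 6.71% in WT. Its level was 839 to 1070 CPM across the KO libraries, whose V counts spanned 538 to 5485, and 2008 to 9858 CPM in WT (edgeR log2 fold change -2.84 ± 0.36 SE, adjusted p = 0.0031). Igkc, by contrast, ranged from 24.5 to 280 CPM in KO and from 2725 to 45126 CPM in WT. With Ighm left out, V counts per constant count did not differ (log2 difference 0.0041, exact permutation test, p = 0.98). Per count of the switched genes Ighg, Ighe and Igha the direction turned: Ighv counts were 12.8 to 82.1 per 100 in KO and 9.42 to 12.4 in WT (log2 difference 1.19, exact permutation test, adjusted p = 0.022). These 3 ratios were added after the data were seen. J segments, which join to V segments, had 2 to 42 counts in KO and 202 to 2586 in WT.

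**Figure D3:**
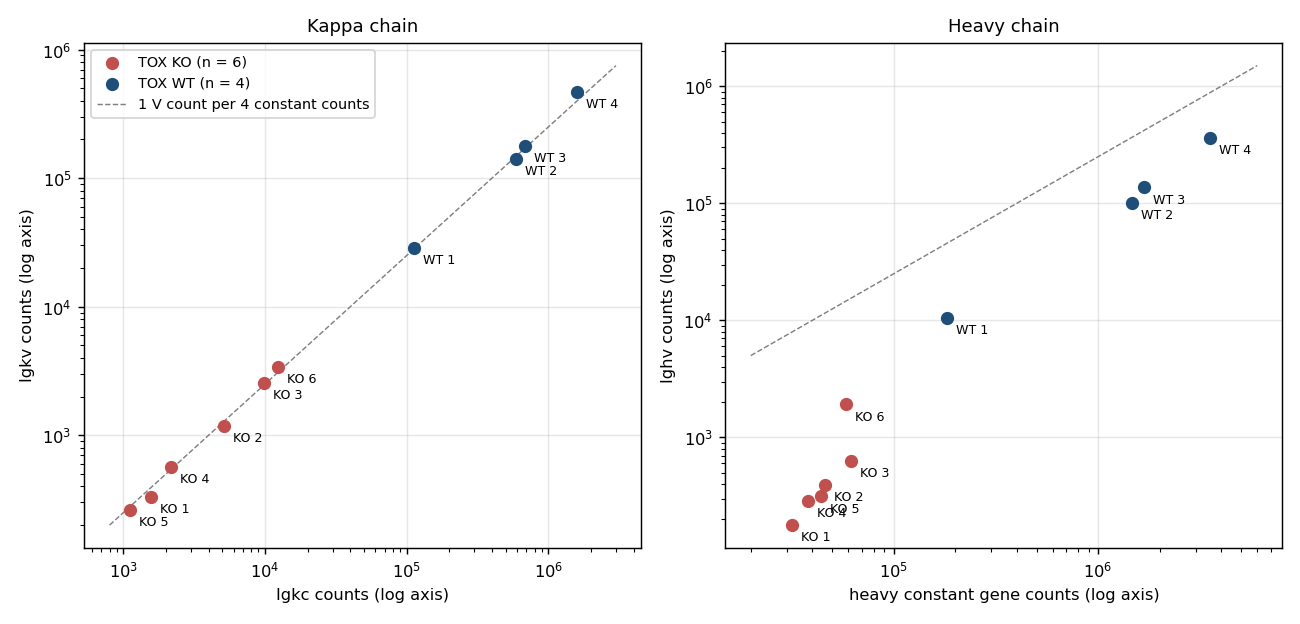
Igkv counts against Igkc counts (left) and Ighv counts against the summed heavy constant genes (right) in each library, on log axes, with a dashed line at 1 V count per 4 constant counts in both panels. All libraries of both genotypes lie near the line for kappa, and for the heavy chain the KO libraries lie further below it than the WT libraries.

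Segment by segment, 148 V rows had enough counts to be tested among 14214 genes. EdgeR called 91 of them lower in KO and 0 higher at an adjusted p under 0.05, where 2.7% of all tested genes were called lower and 0.429% higher. The other 57 did not pass. All 148 log2 fold changes were negative, from -11.94 to -1.59, with a median of -7.42 (all genes -0.12). With the 8 tested segments that had no count in any KO library set to 3 counts over the KO group the median was -7.33. In 114 of the 148 every KO library lay below every WT library, against 6.31% of all tested genes. These counts do not stand as support for a difference, because 131 of the 148 reached the count filter in fewer than 4 KO libraries and so entered through their WT counts. Of the 17 that reached it in 4 or more KO libraries, 15 were called lower. By locus, 37 of 62 tested Ighv rows, 52 of 83 Igkv rows and 2 of 3 Iglv rows were lower. Of the 200 rows not tested, 112 had some counts and 88 had none. Single libraries moved the number called lower. It was 154 without WT replicate 1 (7.9% of all genes then tested), 60 without WT replicate 2 (1.51%), 25 without WT replicate 4 (0.977%) and 57 without KO replicate 1 (1.87%). Libraries numbered 4 to 8 alone gave 123 (7.18%) and those numbered 1 to 3, with 1 WT library among them, gave 3 (0.524%).

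Ighv3-6 had the lowest adjusted p of the V segments. It held 6, 32, 7, 4, 9 and 10 counts in KO and 4678, 722, 3217 and 5445 in WT (edgeR log2 fold change -8.52 ± 0.79 SE, adjusted p = 9.3e-04). Its lowest WT library was far above its highest KO library. Iglv1, the main lambda segment of the mouse, was among the 10 largest segments of every library. It held 19, 189, 395, 81, 71 and 153 counts in KO and 3697, 13173, 13745 and 44218 in WT (edgeR log2 fold change -7.36 ± 0.90 SE, adjusted p = 0.0024). As a share of V counts Iglv1 was 2.79 to 10.6% in KO and 4.17 to 8.43% in WT, so its place among the segments overlapped between the genotypes. Of its lambda relatives, Iglv3 was called lower (edgeR log2 fold change -6.28, adjusted p = 0.0048). Iglv2 was at 0 in KO replicates 1 and 2, at 10 to 168 counts in the other KO libraries and at 601 to 5147 in WT (edgeR log2 fold change -6.21, adjusted p = 0.062, not past the threshold, and 0.013 with limma-voom).

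Igkv4-57 and Ighv1-9 were the leading kappa and heavy chain segments of WT replicates 2 and 3. Igkv4-57 had 13, 31, 113, 119, 34 and 80 counts in KO and 392, 52186, 93594 and 70751 in WT (edgeR log2 fold change -10.01 ± 1.30 SE, adjusted p = 0.0033). The groups did not overlap, but WT replicate 1 lay closer to the KO libraries than to the other 3 WT libraries. Ighv1-9 had 19, 12, 13, 53, 25 and 430 counts in KO and 130, 43541, 88016 and 60343 in WT (edgeR log2 fold change -9.29 ± 1.75 SE, adjusted p = 0.018). It overlapped, since KO replicate 6 with 430 counts was above WT replicate 1 with 130. The call on Ighv1-9 was lost without KO replicate 1 (edgeR adjusted p = 0.051) or WT replicate 4 (0.056).

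The summed share of these 2 segments followed the library numbers, a pattern noticed after their values were seen and given without a test. Their counts were near equal in WT replicates 2 to 4, with 1.20, 1.06 and 1.17 Igkv4-57 counts per Ighv1-9 count, and 3.02 in WT replicate 1. In KO the ratio ran from 0.186 to 8.69. Together they held 37.1, 55.1 and 14.8% of V counts in WT replicates 2, 3 and 4 and 1.19% in WT replicate 1. In KO replicates 4, 5 and 6 they held 17.8, 8.82 and 9.30%, and in KO replicates 1, 2 and 3, 5.95, 2.42 and 3.32%. Sorted by library number instead of genotype, the summed share was 1.19 to 5.95% in the 4 libraries numbered 1 to 3. It was 8.82 to 55.1% in the 6 numbered 4 to 8, and this order held in KO and in WT. The order did not hold in KO for Igkv4-57 alone, which took 1.46% in replicate 6 and 1.74 to 2.98% in replicates 1 to 3. Igkv4-57 took 12.3 and 5.08% in KO replicates 4 and 5. For Ighv1-9 alone the order held in KO by little, with 3.53% (19 counts) in replicate 1 and 3.74% (25 counts) in replicate 5. The labels do not say what the numbers stand for. Number 2 is shared by KO replicate 2 and WT replicate 1, and number 6 by KO replicate 5 and WT replicate 3.

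**Figure D4:**
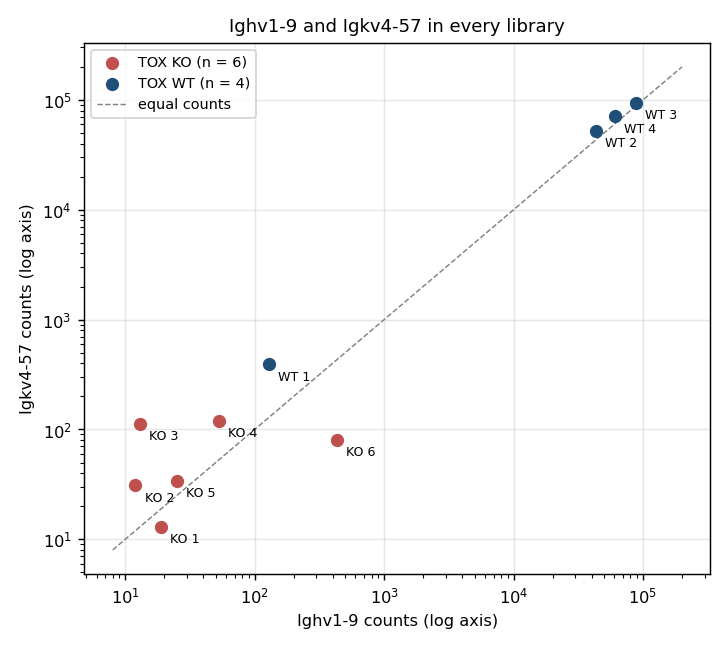
Counts of Igkv4-57 against Ighv1-9 in each library, on log axes, with the line of equal counts dashed. WT 2, WT 3 and WT 4 lie near the line at 43541 to 93594 counts, WT 1 lies far below them, and the KO libraries scatter around the line at 12 to 430 counts.

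Igkv4-91, which led WT replicate 1, ran the other way over the library numbers. It held 1, 46, 18, 0, 0 and 0 counts in KO and 8670, 264, 148 and 382 in WT (edgeR log2 fold change -7.98 ± 1.90 SE, adjusted p = 0.051). Its share was 0.186 to 19.8% in libraries numbered 1 to 3 and 0 to 0.102% in those numbered 4 to 8. It took 19.8% of V counts in WT replicate 1 and 2.59% in KO replicate 2, the library that shares its number, and 0 to 0.474% elsewhere. The 0 counts in KO replicates 4, 5 and 6 allow shares of up to 0.310, 0.448 and 0.0547%. Igkv4-91 missed the threshold by little and passed with limma-voom (adjusted p = 0.030) and with edgeR in libraries numbered 4 to 8 (0.013). The next segments of WT replicate 1 were Igkv17-127 with 4720 counts (10.8%) and Ighv3-6 with 4678 (10.7%). Igkv17-127 held 0 to 66 counts in KO and was called lower (edgeR log2 fold change -8.08, adjusted p = 0.014), a call lost without WT replicate 4 (0.053).

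Igkv16-104 and Ighv1-18 led WT replicate 4. Igkv16-104 held 0, 23, 6, 3, 3 and 15 counts in KO and 112, 485, 382 and 102743 in WT (edgeR log2 fold change -11.94 ± 2.26 SE, adjusted p = 0.019). Ighv1-18 held 0, 4, 0, 0, 0 and 52 counts in KO and 161, 308, 1572 and 75196 in WT (edgeR log2 fold change -11.31 ± 2.50 SE, adjusted p = 0.037). Both means rest on that library, in which they took 11.6 and 8.51% of V counts. Without WT replicate 4 the log2 fold changes were -5.57 (edgeR adjusted p = 0.068) and -6.40 (0.22). The call on Ighv1-18 was also lost without any 1 of KO replicates 1 to 5 (0.076 to 0.093) or WT replicate 2 (0.051).

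KO replicate 6, with the most V counts of its group, had leaders of its own. Igkv10-96 held 17, 66, 102, 16, 16 and 861 counts in KO and 586, 6577, 4773 and 23288 in WT (edgeR log2 fold change -5.95 ± 1.44 SE, adjusted p = 0.054). Its KO replicate 6 count was above WT replicate 1, and without KO replicate 6 it passed (edgeR adjusted p = 0.0097), as it did without WT replicate 1 (0.020). Igkv3-7 held 3, 0, 8, 10, 0 and 641 counts in KO and 176, 169, 97 and 1777 in WT. Its log2 fold change was -2.63 (SE 1.91, edgeR adjusted p = 0.50), and -7.28 without KO replicate 6 (0.046). Ighv1-75 held 0, 7, 0, 0, 6 and 464 counts in KO and 65, 1005, 377 and 9611 in WT (edgeR log2 fold change -5.44, adjusted p = 0.23, and 0.026 without KO replicate 6). The 3 segments took 15.7, 11.7 and 8.46% of V counts there, and the library had the lowest evenness of the KO group.

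Other leaders of KO libraries had few counts. Igkv4-55 led KO replicate 1 with 38 counts, held 0 to 185 in the other KO libraries and 167 to 3975 in WT, and did not pass (edgeR log2 fold change -5.48, adjusted p = 0.075). It is the nearest relative of Igkv4-57 by sequence. Igkv4-63 held 0 to 51 counts in KO and 45, 1519, 14334 and 2031 in WT, and was called lower (edgeR log2 fold change -8.22, adjusted p = 0.028), a call kept in 2 of 10 fits without 1 library (0.0078 to 0.072). Igkv6-15 was called lower (edgeR log2 fold change -6.33 ± 0.76 SE, adjusted p = 0.0023) with 8 to 60 counts in KO and 909 to 2790 in WT. Ighv6-3 was called lower (edgeR log2 fold change -7.04, adjusted p = 0.0072) with 5 to 34 counts in KO and 202 to 4194 in WT. Igkv1-110, Igkv6-23, Igkv3-12 and Igkv1-117, each among the 3 largest of a KO library, were called lower as well (edgeR adjusted p = 0.019, 0.016, 0.016 and 0.015), and each call was lost without WT replicate 4 (0.070, 0.053, 0.057 and 0.051). That on Igkv1-110 was also lost without KO replicate 1 (0.052).

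Of the 24 segments named here, 9 passed in every fit without 1 library: Iglv1, Iglv3, Igkv4-57, Igkv4-70, Igkv6-15, Ighv1-26, Ighv1-64, Ighv3-6 and Ighv6-3. Among these, Iglv3, Igkv4-70, Ighv1-26, Ighv3-6 and Ighv6-3 reached the count filter in fewer than 4 KO libraries, so they entered through their WT counts. Iglv1, Igkv4-57, Igkv4-70, Igkv6-15 and Ighv3-6 were named at least in part for a low adjusted p. Passing these fits therefore does not stand as support for a difference. With limma-voom in place of edgeR, Igkv4-57, Ighv1-9, Igkv16-104, Ighv1-18, Igkv4-63 and Ighv1-26 did not pass (adjusted p = 0.18, 0.25, 0.17, 0.11, 0.11 and 0.081). Igkv4-70 held 4 counts over the 6 KO libraries and 132 to 3582 in each WT library (edgeR log2 fold change -11.27 ± 1.35 SE, adjusted p = 0.0023). Ighv1-26 held 0 to 13 counts in KO and 65 to 7815 in WT (edgeR log2 fold change -9.20, adjusted p = 0.0050), and Ighv1-64 held 0 to 45 in KO and 2001 to 9209 in WT (-8.25, 0.0042).

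**Figure D5:**
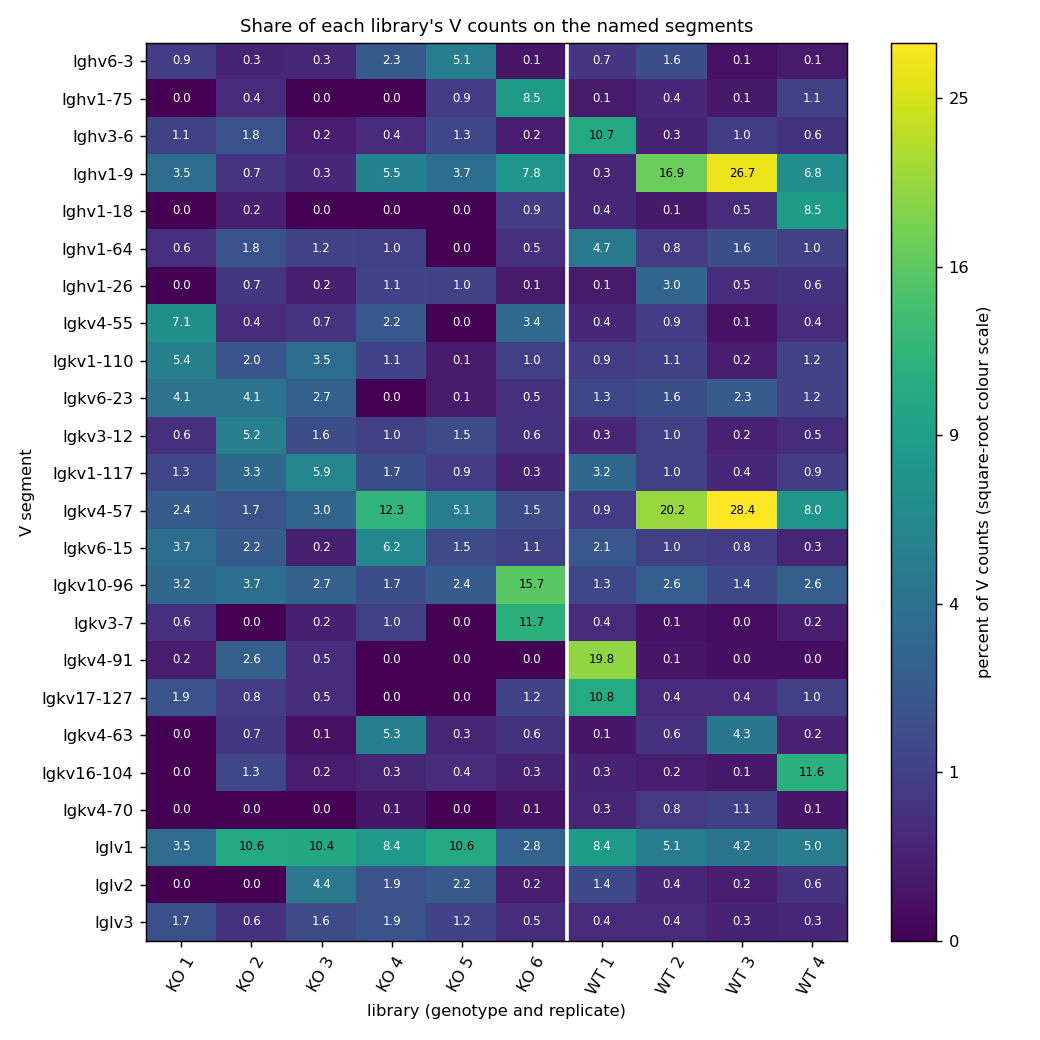
Percent of each library's V counts on the 24 named segments, with the value in each cell and a square-root colour scale; the white line parts KO from WT. Igkv4-57 and Ighv1-9 reach 28.4 and 26.7% in WT 3, Igkv4-91 19.8% in WT 1 and Igkv16-104 11.6% in WT 4, and Igkv10-96 15.7% in KO 6.

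The order of segments was shared to different degrees. Over all 348 V rows, those at 0 in both libraries included, Spearman's rho was 0.896 to 0.914 between WT replicates 2, 3 and 4, and 0.740 to 0.781 between WT replicate 1 and those 3. Between KO libraries it was 0.415 to 0.643. Rows are not independent, since near copies share reads, and rows at 0 in both libraries enter as ties. The counts were not thinned here, and libraries held 538 to 5485 V counts in KO and 43844 to 884030 in WT. The part of depth in these values was not tested. KO replicate 6 had values of 0.713 to 0.773 with the WT libraries and 0.494 to 0.643 with the other KO libraries. KO replicate 2 and WT replicate 1, which share number 2, gave 0.565, within the 0.557 to 0.578 of KO replicate 2 with the other WT libraries. KO replicate 5 and WT replicate 3, which share number 6, gave 0.544, against 0.524 to 0.542. Of the 10 largest segments of each library, WT replicates 2, 3 and 4 shared 4 or 5 with each other and WT replicate 1 shared 2 or 3 with them. Pairs of KO libraries shared 1 to 5, and a KO and a WT library 2 to 6, with 6 for KO replicate 5 and WT replicate 2.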

How the data were processed

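Per the labels' protocols, 2 to 10 ng of RNA from sorted cells went through 12 cycles of SMART-seq v4 amplification and 10 ng of the cDNA through 8 cycles of library PCR, before paired 50 bp sequencing. The authors deposited raw counts for each gene name. Per the file headers these come from featureCounts 1.6.2 and GENCODE M17 (GRCm38.p6), with no option for strand or multi-mapping. STAR and FastQC are named in the submitters' processing notes.

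All genes were fitted with edgeR 4.0.16 in R 4.3.3 (TMM, filterByExpr, genotype as the only term, Benjamini-Hochberg over all tested genes), a procedure tested on simulated data. Fold changes are KO minus WT. Composition was computed per library from V counts and tested by exact permutation over libraries. Alternatives were RLE factors, no filter, DESeq2 1.42.0, limma-voom (limma 3.58.1), other scalings, thresholds and denominators, library sets, a replicate block and leaving out each library. Named segments are the 3 largest of each library, the 5 with the highest mean WT share in each locus, and the 5 with the lowest adjusted p. The segments, lists and tests were chosen with earlier results of these data known. Promoter motifs of the segments were not analysed here. A further B cell marker is not reported here.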

Additional observations from a re-analysis of the deposited data

Results flagged for a closer look

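Within the 6 KO or the 4 WT libraries, 66 sets of values were examined for a library far from all others of its group by Dixon's ratio, and 19 stood out. Chance flags about 1 in 20 sets, but that rate does not apply to the 16 of the 19 that are shares of named segments, since most of these were named for being among the largest of some library. KO replicate 6 had the lowest evenness of its group (0.743, the next 0.856), and the highest shares of V counts on Igkv10-96 (15.7%), Igkv3-7 (11.7%), Ighv1-75 (8.46%) and Ighv1-18 (0.948%). KO replicate 4 had the highest shares on Igkv4-57 (12.3%) and Igkv4-63 (5.26%). KO replicate 2 had the highest on Igkv3-12 (5.17%), Igkv4-91 (2.59%) and Igkv16-104 (1.29%).

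Among WT libraries, replicate 1 had the lowest heavy chain share of V counts (24.1%, the next 39.3%) and the highest pseudogene share (0.509%). It also had the highest shares on Igkv4-91 (19.8%), Igkv17-127 (10.8%) and Ighv3-6 (10.7%). WT replicate 4 had the highest shares on Igkv16-104 (11.6%) and Ighv1-18 (8.51%), WT replicate 3 on Igkv4-63 (4.35%) and WT replicate 2 on Ighv1-26 (3.03%).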

How the results depend on the processing

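Within library numbers 4 to 8 the KO minus WT differences were 0.192 for evenness, 5.18 for the matched number of segments over 10 counts (thinned to 669 V counts, in place of 538) and -2.26 for the log2 V per constant ratio (exact permutation test, adjusted p = 0.23 for each, the smallest 3 against 3 allow). With the replicate block they were 0.227, 7.22 and -2.31 (exact sign-flip test, adjusted p = 0.22), and edgeR with the replicate block called 0 V segments and 0 of all 14214 genes, with 137 V segments at an unadjusted p under 0.05 and a smallest adjusted p of 0.056; without the block it called 91. The block used replicate numbers 1 to 4 of the titles. Deviations of the libraries that share one correlated at 0.289, -0.249, -0.220 and 0.295, so these numbers were not taken to pair them. WT replicate 1 correlated best with KO replicate 2, which shares its library number, and WT replicate 3 with KO replicate 4, which does not. WT replicate 4 correlated best with KO replicate 4, which shares its replicate number, and WT replicate 2 with KO replicate 5, which shares neither number. Leaving out 1 library gave 0.165 to 0.232 for evenness, 6.13 to 7.50 for the matched number (at 669 V counts without KO replicate 1), -2.50 to -2.03 for the ratio, -11.7 to -6.10 for the largest share (passing without WT replicate 4, adjusted p = 0.042) and 25 to 154 segments called. Other definitions gave 0.058 (all rows) and 0.219 (Igkv alone, adjusted p = 0.05) for evenness, -29.3 (within Ighv) and -20.8 (within Igkv) for the largest share, and -11.5 (at least 1 count) and -1.05 (over 50 counts) for the matched number. They gave -0.096 (kappa), 1.19 (switched) and 0.0041 (without Ighm) for the ratio and 15.9 points for lambda by constant genes. DESeq2 called 142 segments lower (9.54% of all its genes were), a threshold of 0.01 left 20 (0.851%), and library numbers 1 to 3 gave 3. Other scalings, no filter, limma-voom and a library set term gave 70 to 102 (1.39 to 4.78%), and no named segment changed direction. The cause of these changes was not tested. The 538 V counts of the shallowest library limit the matched numbers, and a count of 0 there allows a share of up to 0.558%.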
